A study of Mus musculus with 6 samples.

Results

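The mevalonate pathway enzymes that lead from acetoacetyl-CoA to lanosterol were followed in the transcriptomes of MA-10 and STARKO1 cells. Hmgcs1, Mvk, Pmvk, Mvd, Idi1, Fdps, Fdft1, Sqle and Lss were taken by symbol from the deposited count table, which lists 14774 genes, and all 9 enzymes were present in it. MA-10 is a mouse tumor Leydig cell line, and the MA-10 libraries (n = 3) came from untreated wild type cells. The STARKO1 libraries (n = 3) came from untreated cells of 1 clone, grown from a single sorted MA-10 cell after CRISPR/Cas9 disruption of Star, so that the effect of the knockout and the properties of this clone cannot be told apart. Total RNA of both lines was made into libraries with the same strand-marking kit. Nothing in the labels says that libraries of a line came from separate cultures, and the p-values then measure only the spread between these libraries, which may be technical.

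Star, which encodes the steroidogenic acute regulatory protein, had 697 to 1261 counts in MA-10 and 36 to 48 counts in STARKO1, a log2 fold change of -5.09 for STARKO1 over MA-10 (SE 0.331, adjusted p = 0.0012 in edgeR's quasi-likelihood test). Libraries held 14114351 to 19530062 counts. All 10 Leydig cell markers examined were detected, and their summed level was 2144 to 2754 CPM (counts relative to library size) in MA-10 and 1791 to 1867 CPM in STARKO1. Of the 10, edgeR called 1, against 9.04% of all genes: Hsd3b1, lower in STARKO1 (29.8 against 5.19 CPM). Without overlap between the lines, 4 were lower in STARKO1 (Cyp11a1, Hsd3b1, Hsd3b6 and Lhcgr) and 2 were higher (Cyp17a1 and Nr5a1). Over all 11939 genes tested, 2503 were lower and 2569 higher in this way. Markers of other testis cells were listed for 4 of 8 Sertoli, 3 of 6 macrophage, 2 of 4 endothelial, 1 of 4 germ and 2 of 4 peritubular myoid genes, with summed levels in MA-10 and STARKO1 of 692 to 777 and 795 to 829, 5.38 to 10.1 and 6.66 to 8.69, 26.4 to 41.5 and 118 to 124, 2.20 to 3.55 and 1.91 to 2.83, and 13.0 to 20.5 and 1.72 to 2.59 CPM. Of these, edgeR called Cdh5 higher in STARKO1, 1 of 2 endothelial genes tested, and Des lower, 1 of 1 myoid gene tested. It called none of the Sertoli, macrophage and germ cell genes, and 9.04% of all genes were called. MA-10 replicate 1 stood apart from the other MA-10 libraries. Across the log2 CPM of all tested genes it correlated with STARKO1 libraries at r = 0.956 to 0.959 and with MA-10 replicates 2 and 3 at 0.897 and 0.931, genes not being independent replicates. 7SL RNA took 1.81% of the counts in MA-10 replicate 1, 14.4% and 6.63% in MA-10 replicates 2 and 3, and 1.82 to 2.37% in STARKO1. Results are therefore given with and without MA-10 replicate 1, and the part of the library and marker differences in them was not tested. Replicate 1 was picked out from these same data as the MA-10 library nearest to STARKO1. Leaving it out tends to widen the contrast: edgeR then called 65.7% of all genes, against 9.04% with all libraries. Small p-values without it are therefore no independent support for a difference.

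The mevalonate pathway builds sterols and isoprenoids from acetyl-CoA. HMG-CoA synthase acts on the way to mevalonate, the kinases MVK and PMVK and the decarboxylase MVD turn it into isopentenyl diphosphate, and IDI1 and FDPS assemble farnesyl diphosphate, from which protein prenylation, dolichol and ubiquinone also draw. Squalene synthase (FDFT1), squalene epoxidase (SQLE) and lanosterol synthase (LSS) commit carbon to sterols, the genes of the pathway are known targets of the SREBP2 transcription factor, and in Leydig cells the end product cholesterol is the substrate of steroid hormone synthesis.

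RefSeq promoter windows of GRCm38.p6, running from 250 bases before to 50 bases after a gene's start, were found for 6 of the 9 enzymes: Hmgcs1, Mvk, Pmvk, Mvd, Idi1 and Lss. Pmvk had 2 windows and the others 1, which makes 7. They were searched on both strands for TCACNCCAC and TCACCCCAC, the cores of sterol regulatory elements (the second lies inside the first), for TCACGTGA, an E-box type sterol element, for the NF-Y motif CCAAT, and for the Sp1 motif GGGCGG. Shown are the windows of Hmgcs1 (chr13:119690101-119690400) and Lss (chr10:76531355-76531654), from the beginning and the end of the pathway, and of the neighbouring kinases Mvk (chr5:114444019-114444318) and Pmvk (chr3:89454291-89454590), whose fold changes had opposite signs. All 4 lie on the plus strand, capitals mark a sterol element core or the NF-Y motif in either orientation, and the Sp1 motif is left in lower case.
Hmgcs1: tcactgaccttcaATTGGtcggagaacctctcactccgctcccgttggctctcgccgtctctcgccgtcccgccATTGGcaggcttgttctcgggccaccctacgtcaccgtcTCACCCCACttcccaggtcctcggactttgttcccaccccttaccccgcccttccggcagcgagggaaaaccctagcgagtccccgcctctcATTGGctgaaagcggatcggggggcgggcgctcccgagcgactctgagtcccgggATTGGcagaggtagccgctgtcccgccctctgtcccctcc
Lss: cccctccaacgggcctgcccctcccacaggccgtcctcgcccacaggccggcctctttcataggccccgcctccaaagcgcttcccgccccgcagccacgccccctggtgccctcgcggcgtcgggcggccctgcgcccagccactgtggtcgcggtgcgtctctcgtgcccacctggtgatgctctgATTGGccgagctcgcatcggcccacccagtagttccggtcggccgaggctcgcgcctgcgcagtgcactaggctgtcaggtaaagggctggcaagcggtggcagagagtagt
Mvk: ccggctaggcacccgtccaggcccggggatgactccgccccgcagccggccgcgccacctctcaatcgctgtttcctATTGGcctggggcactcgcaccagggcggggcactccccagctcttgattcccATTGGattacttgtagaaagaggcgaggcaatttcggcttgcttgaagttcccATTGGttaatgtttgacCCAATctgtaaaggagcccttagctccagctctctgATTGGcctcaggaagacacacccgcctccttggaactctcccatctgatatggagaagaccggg
Pmvk: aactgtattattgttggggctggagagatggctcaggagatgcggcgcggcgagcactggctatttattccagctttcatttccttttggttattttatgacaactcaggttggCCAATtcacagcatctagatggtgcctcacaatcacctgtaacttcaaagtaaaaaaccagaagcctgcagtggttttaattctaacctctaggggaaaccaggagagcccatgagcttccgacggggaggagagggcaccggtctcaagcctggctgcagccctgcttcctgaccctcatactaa
The sterol element core TCACCCCAC was found in 1 of the 7 windows, that of Hmgcs1, where it spans 137 to 129 bases before the start, and 0.551% of all 32851 windows of this length hold it (1.24% hold TCACNCCAC). CCAAT was found in 6 of 7 windows, with 5 matches in Mvk and 4 in Hmgcs1, against 37.4% of all windows. GGGCGG was found in 5 of 7 windows, both Pmvk windows being the exceptions, against 35.7% of all windows. TCACGTGA was found in 0 of 7 windows and in 0.974% of all windows. The second Pmvk window (chr3:89459321-89459620) held none of these motifs. A match, or its absence, describes letters in these windows only, and sequence outside them was not searched.

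The first question was whether the transcripts of these enzymes differed between wild type and STAR-deficient cells. None of the 9 was called differentially expressed at an adjusted p under 0.05 in edgeR's quasi-likelihood test (0 of 9, against 9.04% of the 11939 genes tested). At an unadjusted p under 0.05 in edgeR there were 4 of 9, against 37.6% of all genes: Sqle, Lss and Mvd with higher values in STARKO1 (15% of all genes) and Pmvk with lower values (22.7%). At an adjusted p under 0.10 in edgeR there were 2 of 9, Sqle and Lss, against 29.1%. DESeq2 called Sqle and Lss higher in STARKO1, 2 of 9 against 11% of all genes called higher and 28.4% called in either direction. Offsets for gene length in edgeR gave 3 of 9 (Sqle, Lss and Mvd, against 10.4%), and offsets for GC content gave 1 of 9 (Sqle, against 10.9%). Without MA-10 replicate 1, edgeR called 6 of 9, against 65.7% of all genes: Sqle, Lss and Mvd were higher in STARKO1 (34% of all genes), and Pmvk, Idi1 and Fdft1 were lower (31.7%). In edgeR without MA-10 replicate 2 or 3, 0 of 9 were called, against 4.19% and 1.49% of all genes, and without STARKO1 replicate 1, 2 or 3 the count was 0 of 9 as well, against 0.73%, 1.11% and 0.76%. A fit with the replicate number as a block called 0 of 9, against 1.96%. In 3 of 9 enzymes (Mvd, Sqle and Lss) all STARKO1 libraries lay above all MA-10 libraries, and 21.5% of all genes did so. In bulk RNA, a lower level cannot be told apart from fewer cells that express the gene.

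**Figure D1:**
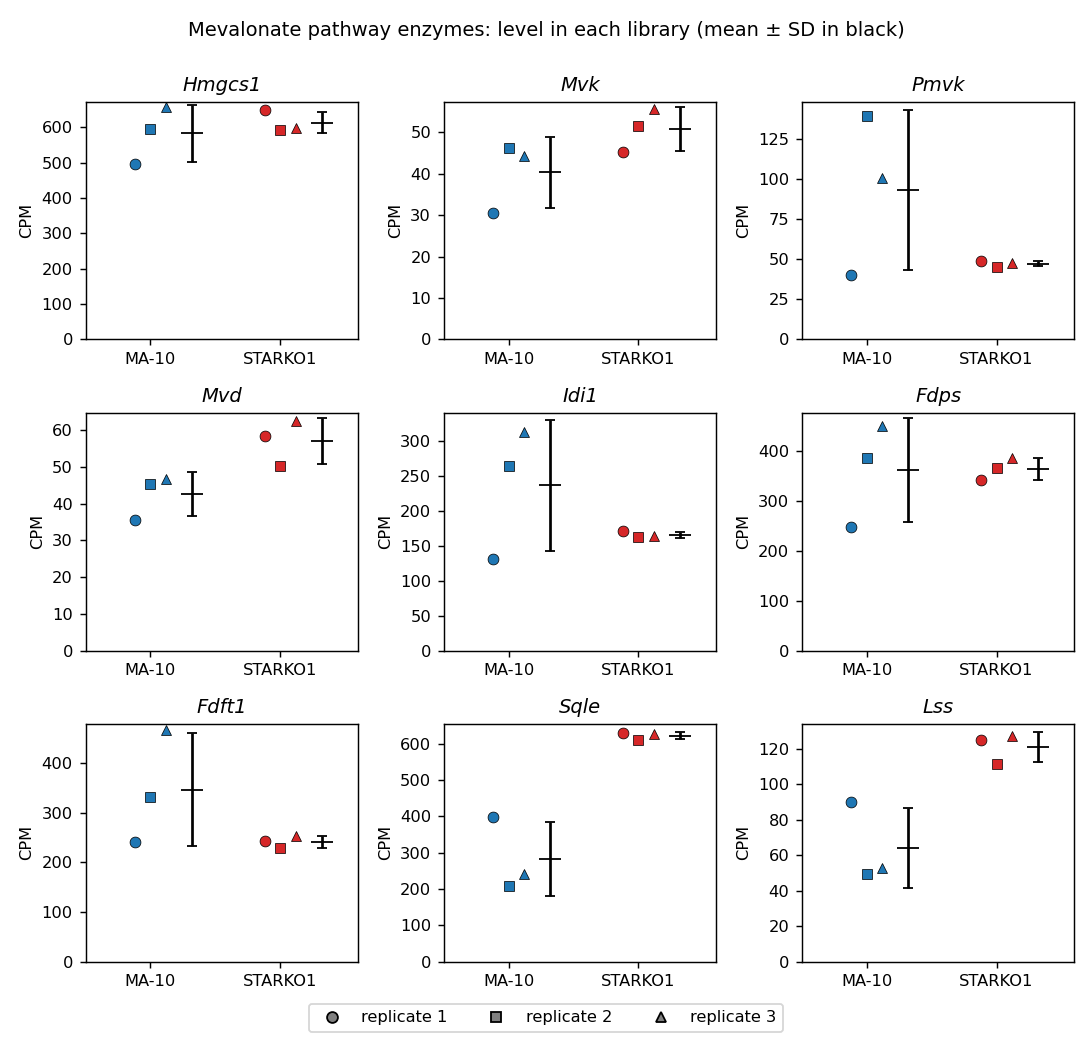
Level of each of the 9 enzymes in CPM (vertical axis, from 0) in each MA-10 and STARKO1 library, 1 point per library, with the mean and SD of 3 libraries in black. The STARKO1 points of Sqle, 611 to 628 CPM, lie above the highest MA-10 point at 397 CPM, while those of Fdps, 343 to 387 CPM, lie within the MA-10 range of 249 to 452 CPM.

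Hmgcs1 (chromosome 13, 119690379 to 119708260, plus strand, GRCm38) encodes the cytosolic HMG-CoA synthase that starts the pathway. It measured 497, 595 and 657 CPM in MA-10 replicates 1, 2 and 3 and 648, 593 and 598 CPM in STARKO1 replicates 1, 2 and 3. The libraries of the lines overlapped, with means of 583 ± 80.5 and 613 ± 30.5 CPM (SD, n = 3 each). The log2 fold change of STARKO1 over MA-10 was 0.07 (SE 0.202, 95% interval -0.41 to 0.55, edgeR adjusted p = 0.806), so that a difference of 0.55 in log2 is still inside the interval. The antisense gene Gm48342, which shares 6190 bases with Hmgcs1, had 2 to 12 counts per library.

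The 3 enzymes that turn mevalonate into isopentenyl diphosphate did not share a direction. Mevalonate kinase, Mvk (chromosome 5, 114444269 to 114460591, plus strand), adds the first phosphate. Its levels were 30.4, 46.2 and 44.2 CPM in the MA-10 libraries, in the order of their numbers, and 45.3, 51.4 and 55.7 CPM in the STARKO1 libraries. The lowest STARKO1 library lay just under the highest MA-10 library, and the log2 fold change was 0.34 (SE 0.206, 95% interval -0.15 to 0.82, edgeR adjusted p = 0.261).

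Pmvk (chromosome 3, 89454541 to 89469013, plus strand) encodes phosphomevalonate kinase, which adds the second phosphate. Relative to their mean, its MA-10 libraries were the most widely spread of the 9 enzymes (coefficient of variation 53.3%), at 40.4, 138.9 and 100.5 CPM, while the STARKO1 libraries were at 48.7, 45.3 and 47.6 CPM. MA-10 replicate 1 lay below every STARKO1 library and MA-10 replicates 2 and 3 lay above all of them. The means were 93.3 ± 49.7 and 47.2 ± 1.70 CPM (SD, n = 3 each), with a log2 fold change of -0.98 (SE 0.410, 95% interval -1.95 to -0.0078, edgeR adjusted p = 0.131). Without MA-10 replicate 1 Pmvk was lower in STARKO1 at an edgeR adjusted p of 0.00013.

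Mvd (chromosome 8, 122433601 to 122443422, minus strand) encodes the decarboxylase that yields isopentenyl diphosphate. It was measured at 35.7, 45.4 and 46.8 CPM in MA-10 and at 58.4, 50.4 and 62.6 CPM in STARKO1. Every STARKO1 library exceeded every MA-10 library, by a narrow margin between 46.8 and 50.4 CPM. The log2 fold change was 0.42 (SE 0.177, 95% interval 0.0037 to 0.84), and the edgeR adjusted p was 0.131 with all libraries and 0.0253 without MA-10 replicate 1.

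Both enzymes that build farnesyl diphosphate overlapped between the lines. Idi1 (chromosome 13, 8885501 to 8892451, plus strand) encodes isopentenyl-diphosphate isomerase, which supplies dimethylallyl diphosphate. It was at 131.9, 265 and 313 CPM in MA-10 and at 171, 163 and 164 CPM in STARKO1. As for Pmvk, MA-10 replicate 1 was the lowest of the 6 libraries and MA-10 replicates 2 and 3 were the highest. On the log2 scale the fold change was -0.51 (SE 0.317, 95% interval -1.26 to 0.24, edgeR adjusted p = 0.265). Idi1 was lower in STARKO1 without MA-10 replicate 1 (edgeR adjusted p = 0.00126), and its fold change turned to 0.02 when libraries were scaled by total counts alone, a scaling that moved the median of all genes by 0.43 in log2.

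Fdps (chromosome 3, 89093588 to 89101959, minus strand) encodes farnesyl diphosphate synthase, the branch point enzyme. Its levels were 249, 388 and 452 CPM in MA-10 and 343, 366 and 387 CPM in STARKO1. The STARKO1 values fell inside the MA-10 range, and the means were 363 ± 104 and 365 ± 22.0 CPM (SD, n = 3 each). Its log2 fold change of 0.01 (SE 0.255, 95% interval -0.60 to 0.61, edgeR adjusted p = 0.982) had no settled sign, running from -0.11 to 0.20 as single libraries were left out. The same-strand gene Gm43738 overlaps Fdps over 7512 bases and had 0 to 16 counts per library.

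The 3 enzymes committed to sterols held both the largest positive values and a negative one. Fdft1 (chromosome 14, 63145150 to 63179578, minus strand) encodes squalene synthase, which joins farnesyl diphosphate into squalene. It was at 241, 331 and 467 CPM in MA-10 and at 243, 229 and 253 CPM in STARKO1. MA-10 replicate 1 fell among the STARKO1 libraries, and the others were above them. The log2 fold change was -0.52 (SE 0.266, 95% interval -1.15 to 0.11, edgeR adjusted p = 0.193), and without MA-10 replicate 1 Fdft1 was lower in STARKO1 (edgeR adjusted p = 0.00967). Fdft1 shares 774 bases with Ctsb on the opposite strand, a gene with 5783 to 9604 counts per library. The strand setting of the counting is not given in the sources used here, so reads in that stretch are uncertain. The same holds for Mvd and Lss, which the opposite-strand genes Gm20388 (over 9822 bases) and 4930483K19Rik (over 11268 bases) overlap, and for the antisense and overlapping genes of Hmgcs1 and Idi1 (Gm48574, 323 bases, 1 to 7 counts per library).

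Sqle (chromosome 15, 59315077 to 59331192, plus strand) encodes squalene epoxidase, the first oxygen-dependent step and a known control point of sterol synthesis. It measured 397, 207 and 242 CPM in MA-10 and 628, 611 and 627 CPM in STARKO1. All STARKO1 libraries were above all MA-10 libraries, and MA-10 replicate 1 was the MA-10 library nearest to them. The mean was 282 ± 101 CPM in MA-10 and 622 ± 9.57 CPM in STARKO1 (SD, n = 3 each), a ratio of means of 2.20. With a log2 fold change of 1.14 (SE 0.282, 95% interval 0.47 to 1.81), Sqle had the lowest adjusted p of the 9, at 0.0521 in edgeR, and did not pass the threshold. It passed in DESeq2 (adjusted p = 0.00134), with edgeR offsets for gene length (adjusted p = 0.0419) or GC content (adjusted p = 0.0453), and without MA-10 replicate 1 (edgeR adjusted p = 3.97e-05). These fits called 28.4%, 10.4%, 10.9% and 65.7% of all genes. Sqle thus passed in 3 of 10 other settings and in 1 of 6 fits with a library left out. Its edgeR adjusted p reached 0.109 with scaling by library size alone and 0.207 without STARKO1 replicate 3.

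Lss (chromosome 10, 76531588 to 76557138, plus strand) encodes lanosterol synthase, which closes the sterol rings. Its levels were 89.8, 49.4 and 52.6 CPM in MA-10 and 125, 111 and 127 CPM in STARKO1. The order of the libraries resembled that of Sqle, with MA-10 replicate 1 between the other MA-10 libraries and the STARKO1 libraries. The mean was 63.9 ± 22.5 CPM in MA-10 and 121 ± 8.51 CPM in STARKO1 (SD, n = 3 each), a ratio of means of 1.89. The log2 fold change was 0.92 (SE 0.259, 95% interval 0.31 to 1.53), with an adjusted p of 0.0648 in edgeR, 0.0108 in DESeq2, 0.0495 with edgeR offsets for gene length and 5.56e-05 in edgeR without MA-10 replicate 1. Lss passed the threshold in 2 of 10 other settings and in 1 of 6 fits with a library left out. In edgeR its adjusted p reached 0.131 with scaling by library size alone and 0.22 without STARKO1 replicate 3.

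**Figure D2:**
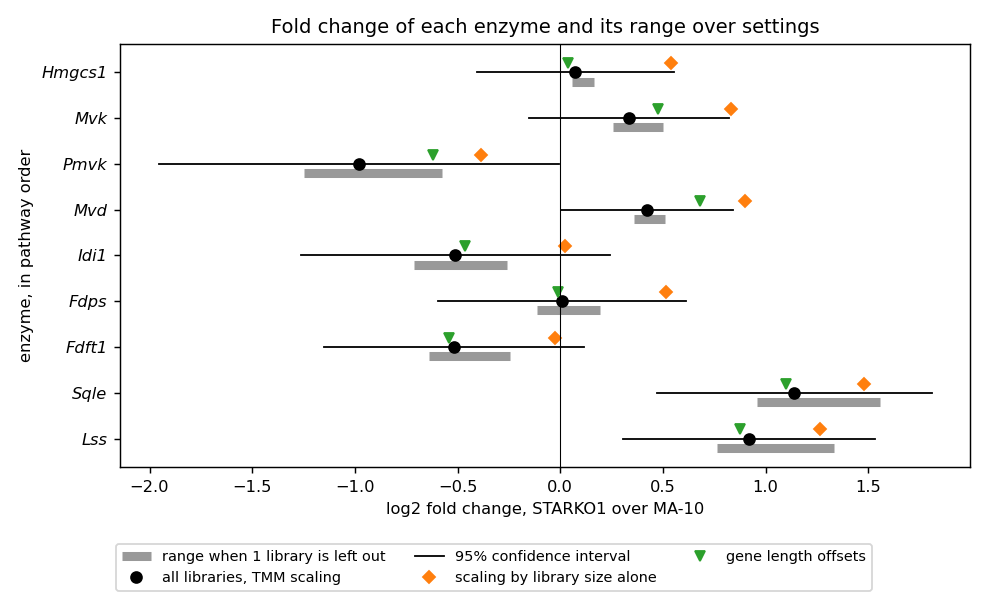
Log2 fold change of STARKO1 over MA-10 (horizontal axis) for each enzyme in pathway order, with its 95% interval. Grey bars give the range when 1 library is left out. Separate markers give the values with scaling by library size alone and with gene length offsets, and the other settings are not drawn. Sqle at 1.14 and Lss at 0.92 lie on the positive side with their whole intervals, Pmvk at -0.98 is the lowest, and the interval of Fdps, -0.60 to 0.61, is centred near 0.

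Enzymes differed in how much the MA-10 libraries spread. The coefficient of variation over MA-10 libraries ran from 13.8% for Hmgcs1 and 14.2% for Mvd to 35.9% for Sqle, 39.7% for Idi1 and 53.3% for Pmvk. Over STARKO1 libraries it ran from 1.54% for Sqle to 10.9% for Mvd, and it was lower than in MA-10 for 9 of 9 enzymes. The share of all genes with this order was not counted. Across all tested genes, STARKO1 libraries correlated with each other at r = 0.993 to 0.994 and MA-10 libraries at 0.897 to 0.979. The narrower spread in STARKO1 is therefore not particular to the enzymes. With 502 counts or more for each enzyme in each library, counting error alone gives at most 4.46%.

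Set against the STARKO1 mean 1 library at a time, the MA-10 libraries gave different pictures. Against MA-10 replicate 1 the log2 difference was above 0 for all 9 enzymes, from 0.0047 for Fdft1 to 0.65 for Sqle, 0.68 for Mvd and 0.74 for Mvk. Against MA-10 replicates 2 and 3 Sqle differed by 1.58 and 1.36 and Lss by 1.29 and 1.20, while Pmvk was at -1.56 and -1.09 and Idi1 at -0.68 and -0.91. The sign therefore depended on the MA-10 library for Pmvk, Idi1, Fdps, Fdft1 and Hmgcs1, and it was positive against each of the 3 for Mvk, Mvd, Sqle and Lss. How many of all genes showed these signs was not counted, so the signs are not read as particular to the enzymes. In 7 of 9 enzymes, Mvk and Mvd excepted, MA-10 replicate 1 was nearer to the STARKO1 mean than to the mean of MA-10 replicates 2 and 3, and 69.5% of all genes tested showed this position.

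**Figure D3:**
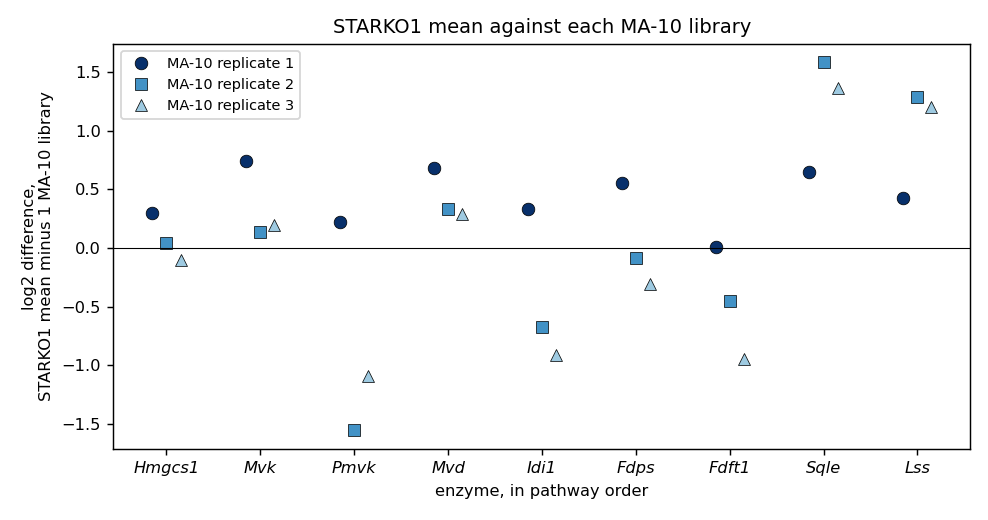
Log2 difference between the STARKO1 mean and each MA-10 library (vertical axis) for the 9 enzymes in pathway order, 1 marker type per MA-10 library. For Pmvk the markers lie at 0.23, -1.56 and -1.09, on both sides of 0, and for Sqle at 0.65, 1.58 and 1.36, all above it.

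Ratios of the counts of consecutive enzymes within a library do not depend on how libraries are scaled, and they were compared between the lines with exact two-sided permutation tests. The smallest p that 3 against 3 libraries can give is 0.1. The ratio of Sqle to Fdft1, the enzymes that use and make squalene, differed most, at log2 values of 0.72, -0.67 and -0.95 in MA-10 and 1.37, 1.42 and 1.31 in STARKO1. Sqle counts were 1.65, 0.627 and 0.518 times the Fdft1 counts in MA-10 and 2.58, 2.67 and 2.47 times in STARKO1. The Lss to Sqle ratio stayed within narrower bounds, at -2.15, -2.07 and -2.20 in MA-10 and -2.33, -2.46 and -2.30 in STARKO1.

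Around the kinases, the log2 ratio of Pmvk to Mvk was 0.41, 1.59 and 1.18 in MA-10 and 0.10, -0.18 and -0.22 in STARKO1, and that of Mvd to Pmvk was -0.18, -1.61 and -1.10 in MA-10 and 0.26, 0.15 and 0.39 in STARKO1. For the isomerase, the mean log2 ratio of Idi1 to Mvd was 0.85 below, and that of Fdps to Idi1 0.47 above, in STARKO1 relative to MA-10. In 7 of the 8 ratios the lines did not overlap, 3 higher and 4 lower in STARKO1 (exact permutation p = 0.1 each, 0.114 after Benjamini-Hochberg adjustment over the 8), and the Mvk to Hmgcs1 ratio overlapped (exact permutation p = 0.2). Among all pairs of the 3460 genes with at least 500 counts in every library, 42.3% of ratios did not overlap. The 8 ratios share enzymes and are not independent.

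**Figure D4:**
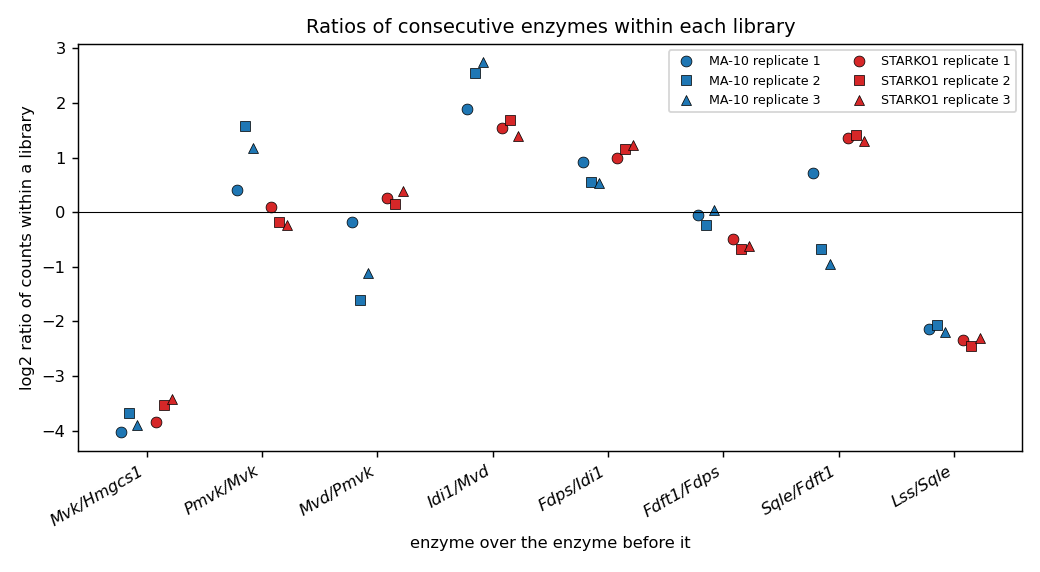
Log2 ratio of the counts of each enzyme to those of the enzyme before it (vertical axis) in the 3 MA-10 and 3 STARKO1 libraries, 1 point per library. The Sqle to Fdft1 points lie at 1.31 to 1.42 in STARKO1 and at -0.95 to 0.72 in MA-10, while the Mvk to Hmgcs1 points of the lines overlap.

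Added up, the 9 enzymes reached 1713, 2066 and 2374 CPM in the MA-10 libraries and 2311, 2220 and 2321 CPM in the STARKO1 libraries, so the lines overlapped in the sum. The overlap depends on the scaling: as a percentage of all counts, without TMM, the 9 enzymes took 0.198%, 0.135% and 0.191% in MA-10 and 0.275%, 0.261% and 0.272% in STARKO1, where every STARKO1 library was above every MA-10 library. Its composition differed. Sqle made up 23.2%, 10.04% and 10.2% of the counts of the 9 enzymes in MA-10 and 27.2%, 27.5% and 27.0% in STARKO1. The share of Fdft1 was 14.1%, 16.0% and 19.7% in MA-10 and 10.5%, 10.3% and 10.9% in STARKO1. Hmgcs1 held a near constant share, 27.7 to 29.0% in MA-10 and 25.7 to 28.1% in STARKO1.

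Levels were compared between enzymes as CPM per kilobase of exonic length. Hmgcs1 was the highest in both lines (127 in MA-10 and 133 in STARKO1), and Lss (5.93 and 11.2) and Mvk (15.1 and 19.0) were the lowest. Sqle ranked 6 of 9 in MA-10 at 50.9 and 2 of 9 in STARKO1 at 112, and Pmvk ranked 5 at 54.4 and 7 at 27.6. In MA-10, the neighbours in the order Fdps (86.2), Fdft1 (81.9), Idi1 (67.6), Pmvk (54.4) and Sqle (50.9) each differed by less than the SD of their libraries, and in STARKO1 the difference between Mvd (30.7) and Pmvk (27.6) was smaller than the SD of Mvd but larger than that of Pmvk. The order depends on the length used: per kilobase of the principal transcript, a choice made after the data were seen, Fdps was the highest in both lines (263 and 264), ahead of Hmgcs1 (168) in MA-10 and of Sqle (226) in STARKO1, and Lss stayed the lowest (13.7 and 25.9). By this length Sqle ranked 3 in MA-10 and 2 in STARKO1, and Pmvk ranked 6 in both lines, so the rank shifts above depend on the length.

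The genes before, after and beside these steps were read from the same fit. Of the 7 genes of acetyl-CoA supply and first steps, 0 were called by edgeR (9.04% of all genes), 4 had an unadjusted p under 0.05 in edgeR (37.6% of all genes), DESeq2 called 3 (28.4% of all genes), and edgeR without MA-10 replicate 1 called 6 (65.7% of all genes). The nearest to the threshold was Acly, ATP citrate lyase, at a log2 fold change of 0.99 (SE 0.284, edgeR adjusted p = 0.066).

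Between lanosterol and cholesterol, 2 of 11 genes were called, both higher in STARKO1, against 9.04% of all genes called and 513 of 11939 called higher. Cyp51, the demethylase that acts on lanosterol and so follows Lss, measured 190, 124 and 163 CPM in MA-10 and 323, 290 and 341 CPM in STARKO1 (log2 fold change 1.00, SE 0.213, edgeR adjusted p = 0.039). Tm7sf2, a sterol reductase, had 2.64 ± 0.494 CPM in MA-10 and 5.27 ± 0.419 CPM in STARKO1 (SD, n = 3 each, log2 fold change 0.98, SE 0.229, edgeR adjusted p = 0.047). The log2 fold changes of all 11 genes were above 0, as were those of 5626 of all 11939 genes, with a median of 0.29 against -0.05 over all genes tested and 0.07 over the 9 enzymes, and leaving out MA-10 replicate 3 left 10 above 0. Both calls were lost whenever MA-10 replicate 2 or 3 or a STARKO1 library was left out. The share of all genes called fell as well, from 9.04% to 4.19% and 1.49% without MA-10 replicate 2 or 3. Without STARKO1 replicate 1, 2 or 3 it was 0.73%, 1.11% and 0.76%, so the loss is not read as particular to these genes.

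Of 19 genes of the isoprenoid branch, which draws on the isoprenoid diphosphates that Idi1 and Fdps supply, 4 were called, against 9.04% of all genes. Higher in STARKO1 were Chml, a Rab escort protein, from a mean of 18.3 to 40.2 CPM (log2 fold change 1.13, edgeR adjusted p = 0.028), and Pdss1, a subunit of the synthase for the ubiquinone side chain, from 6.19 to 11.7 CPM (0.93, adjusted p = 0.047). Lower were Fntb, the beta subunit of protein farnesyltransferase, from 12.6 to 6.43 CPM (-0.97, adjusted p = 0.041), and Trit1, a tRNA isopentenyltransferase, from 23.6 to 15.5 CPM (-0.60, adjusted p = 0.047). Their directions differed, and the list's median was -0.02.

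Among 18 listed genes of sterol regulation 2 were called, against 9.04% of all genes: Nr1h3, the oxysterol receptor LXR alpha, was higher in STARKO1 (7.16 to 12.9 CPM, log2 fold change 0.85, edgeR adjusted p = 0.026), and Npc2, a lysosomal cholesterol carrier, was lower (69.6 to 38.9 CPM, -0.84, adjusted p = 0.041). Srebf2, which encodes SREBP2, the activator of the pathway, had a log2 fold change of 0.44 (edgeR adjusted p = 0.283), and its target Insig1 had -0.06 (adjusted p = 0.786). Over the 4 lists, 8 of 55 tested genes were called, which is 14.5% against 9.04% of all genes, 5 higher and 3 lower in STARKO1. Without MA-10 replicate 1 edgeR called 35 of the 55, against 65.7% of all genes, and without MA-10 replicate 2 it called 2, against 4.19%. It called 0 without MA-10 replicate 3, against 1.49%, and 0 without any 1 STARKO1 library, against 0.73% to 1.11%.

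**Figure D5:**
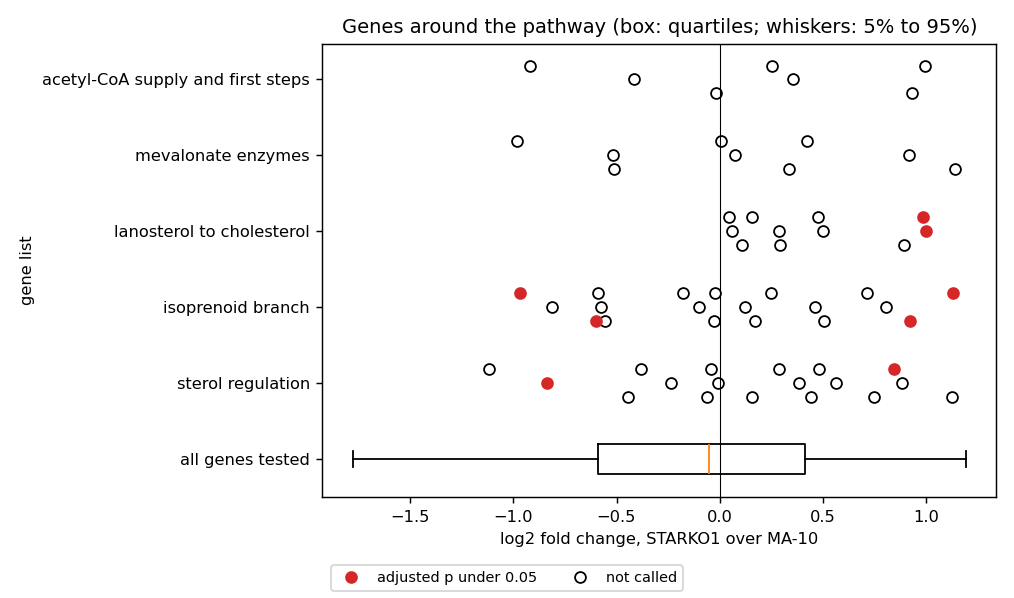
Log2 fold change of STARKO1 over MA-10 (horizontal axis) for the 9 enzymes and for the 4 lists of genes around them, 1 point per gene, with all genes tested as a box of quartiles and whiskers from 5% to 95%. The 11 genes from lanosterol to cholesterol lie above 0 around a median of 0.29, while the 9 enzymes run from -0.98 to 1.14.

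The genes most like the 9 enzymes together were sought by correlating log2 CPM over the 6 libraries with the mean of the enzymes' centred values, among 8211 other genes whose mean level reached 10 CPM. The closest were Rbm25 (r = 0.992), Ercc6l (0.991), Tpr (0.986), Ifi35 (0.985) and Riok2 (0.979), and 18 genes reached 0.95. The enzyme mean was at -0.35 in MA-10 replicate 1 and between 0.01 and 0.13 in the other 5 libraries, so the correlation describes mainly the position of that library. Rbm25, for example, was at 73.9 CPM in MA-10 replicate 1 and at 140 to 171 CPM in the other 5 libraries.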

How the data were processed

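RNA of 3 MA-10 and 3 STARKO1 libraries was sequenced, and the authors deposited 1 table of estimated counts per gene that were not normalized, 1 column per library. The submitters' processing notes name STAR 2.6.1d, Partek and the build mm10, with no role given. The counting program and its strand setting are not given in the sources used here. Of 14774 genes, 8006 had non-whole values, and counts were rounded. All 6 columns were matched to libraries by name.

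Counts were tested in R 4.3.3 with edgeR 4.0.16 (filterByExpr, TMM, glmQLFit, glmQLFTest) over 11939 genes. P-values were adjusted by Benjamini-Hochberg, and genes under 0.05 were called. The standard error is the log2 fold change divided by the square root of F. CPM are relative to the TMM-scaled library size. Coordinates and lengths came from GENCODE M21 (GRCm38). The test was also run on simulated data.

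The 9 enzymes, the lists around them and the cell type markers were chosen with earlier results of these data known. Genes named are the 9 enzymes, Star, members of the lists (2 of which are not reported here), and the 5 genes with the most similar pattern. Other genes were named for overlapping or adjoining an enzyme. Alternatives were DESeq2 1.42.0, other scalings and filters, offsets for gene length or GC content, other thresholds, a replicate block and leaving out each library. Figures were drawn with matplotlib 3.10.9, and tables and exact permutation tests were made in Python 3.11.15 (numpy 2.4.6, pandas 2.3.3). The 95% intervals and the adjustment over the 8 ratios used scipy 1.17.1.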

Additional observations from a re-analysis of the deposited data

How the results depend on the processing

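Of the 9 enzymes, 0 were called by edgeR (9.04% of all genes) and 2 by DESeq2 (28.4% of all genes). Gene length offsets called 3 (10.4%), GC content offsets 1 (10.9%) and a threshold of 0.10 called 2 (29.1%). Leaving out 1 library gave 0 to 6, the 6 without MA-10 replicate 1 (65.7% of all genes). Fold changes kept their direction under every setting for Hmgcs1, Mvk, Pmvk, Mvd, Fdft1, Sqle and Lss, whereas Idi1 turned to 0.025 with scaling by library size alone, and Fdps to -0.011 with gene length offsets and to between -0.11 and 0.20 when single libraries were left out; the cause was not tested. The median of all genes moved by 0.43 in log2 with library size alone and by 0.15 with upper quartile scaling.

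Of the 55 other sterol and isoprenoid genes, 8 were called in edgeR (9.04% of all genes) and 18 in DESeq2 (28.4% of all genes). Upper quartile scaling called 4, library size alone 1, no filter 5, a threshold of 0.01 called 0 and 0.10 called 17 (29.1% of all genes). Leaving out 1 library gave 0 to 35, the 35 without MA-10 replicate 1 (65.7% of all genes). Over the whole table, 1079 genes were called (513 higher, 566 lower), against 3395 in DESeq2, 330 with library size alone (210 higher), 695 with at least 10 counts in every library, 179 at a threshold of 0.01 and 3471 at 0.10. Upper quartile scaling gave 829 genes and no filter gave 947. Leaving out 1 library gave 89 to 7990: 7990, 511 and 181 without MA-10 replicates 1, 2 and 3, and 89, 135 and 93 without STARKO1 replicates 1, 2 and 3. Where fewer libraries were fitted, fewer residual degrees of freedom remained.

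With a replicate block, 0 of the 9 enzymes, 0 of the 55 others and 234 genes in all were called. The labels give both lines the numbers 1 to 3 and do not say that the numbers pair libraries. Deviations of same-numbered libraries correlated at 0.0163 on average, between -0.0165 and 0.0455, and those of other numbers at -0.0078. With 3 libraries per line, these values cannot show whether same-numbered libraries were handled together.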

Other observations

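Mmab, which encodes an enzyme of cobalamin metabolism, lies head to head with Mvk on chromosome 5 (114431034 to 114444060, minus strand, GRCm38), with 209 bases between the starts, so the RefSeq promoter window of Mvk reaches into it. It was chosen for this position and is in none of the lists. Mmab measured 23.0, 143 and 68.0 CPM in MA-10 replicates 1, 2 and 3 and 24.1, 25.2 and 23.3 CPM in STARKO1. MA-10 replicate 1 lay below every STARKO1 library and MA-10 replicates 2 and 3 above them all, an order that Pmvk shared and Mvk did not. The log2 fold change was -1.69 (SE 0.584, edgeR adjusted p = 0.0914), against 0.34 for Mvk.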
